A study of Mus musculus with 2 samples.

Results

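The regulators described here are 10 mouse genes of fat cell formation and heat production: transcription factors and a coactivator that guide precursors to white or brown fat, and Ucp1 and Cidea, products of the mature brown fat cell. The white fat set held Pparg, Cebpa, Cebpb, Cebpd and Zfp423, and the brown fat or thermogenic set held Ebf2, Prdm16, Ucp1, Cidea and Ppargc1a. They were found as every gene spot whose gene name on the array equals one of these symbols, which gave 13 probes, each in 4 spots, out of 39429 probes. All 10 genes were among the 22070 genes tested. RNA came from ureters of NMRI mouse embryos, dissected at E15.5 and grown on transwell membranes for 6 days. The mutant ureters, called Fgfr1/2cDKO, carried a Tbx18(cre/+) allele with Fgfr1(fl/fl) and with Fgfr2(fl/fl), so that Cre from the Tbx18 locus removes both fibroblast growth factor receptors from the mesenchyme around the ureter and its descendants. The control ureters were Fgfr1(fl/?) and Fgfr2(fl/?), with a floxed allele of both genes, a second allele that the label does not state, and no Cre listed. Cells outside the Tbx18 lineage keep the receptors in both genotypes, and loss of the receptors cannot be told apart from the Cre allele itself.

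The measurements were 2 two-colour microarrays, on each of which 1 mutant and 1 control RNA were hybridised side by side in opposite dyes. Array 1 carried mutant RNA in Cy5 and is labelled male, and array 2 carried mutant RNA in Cy3 and is labelled female, so replicate, sex label and dye cannot be told apart. The number of arrays limits the precision, and the labels do not say how many embryos were pooled or whether the replicates were separate litters. Every p-value here rests on these few RNAs. Limma weighs a gene's own spread (1 residual degree of freedom) with a spread pooled over all genes (7.45 prior degrees of freedom). Both are spreads between the 2 arrays and may be purely technical. Limma's test, with a threshold of 0.05 for the adjusted p, called 3.79% of all genes tested: 1.76% were higher and 2.03% lower in mutant RNA. All 14 urothelial, all 10 smooth muscle and all 8 ureteric mesenchyme genes of the marker lists passed the filter on dim probes, as did all 11 macrophage and all 10 endothelial genes; the markers of the ureter were thus detected, which does not set this tissue apart from others. The deleted genes had log2 ratios of mutant over control of -0.22 and -0.44 for Fgfr1 (arrays 1 and 2; limma adjusted p = 0.134) and of 0.57 and 0.54 for Fgfr2 (limma adjusted p = 0.0309). The place of their probes relative to the floxed exons is unknown here, so they do not check the deletion.

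Fat cells arise from fibroblast-like precursors. CEBPB and CEBPD act early and switch on PPARG and CEBPA, which then hold each other on and drive the genes of lipid storage. ZFP423 is a zinc finger protein that marks committed white precursors and restrains the thermogenic programme by binding EBF factors, while EBF2 and PRDM16 promote brown identity, PPARGC1A drives mitochondrial genes, CIDEA sits on lipid droplets and UCP1 is the mitochondrial proton channel that makes heat. Several of these genes are not confined to fat: Pparg is also expressed in urothelium and macrophages, Cebpa and Cebpb in myeloid cells and Ppargc1a in kidney tubule and muscle. These examples are not complete, and which cells of these ureters express Zfp423, Prdm16, Cidea or Ebf2 was not tested. In bulk RNA, fewer cells of a type and less RNA per cell cannot be told apart.

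Probes of Zfp423 and Prdm16, which rose, and of Ebf2, which narrowly missed the threshold, are shown first. A single probe stands for most genes here, and the 3 probes of Zfp423 differed in size of response. The bases of the probe of Cidea, which fell, are not shown. Each line gives the first 30 of the 60 bases of a probe as the files list it, in lower case throughout since no stretch is singled out. The probes lie at chr8:90185710-90185769, chr8:90185918-90185977 and chr8:90210329-90210388 on the minus strand for Zfp423, at chr4:153690254-153690313 on the minus strand for Prdm16 and at chr14:68048145-68048204 on the plus strand for Ebf2, all in mm9. The files give no exon or untranslated region for them.
Zfp423 brightest probe: tgacttgatctgactgcagtaactagttca
Zfp423 neighbouring probe: ccccccttcagttaactactttttaattgc
Zfp423 distant probe: ggacaaaatctacgactgctcgcagtgccc
Prdm16: ctggataccaaatgtaatctttccgatgct
Ebf2: ttggttgtgtttcttggactcttaagactc

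Among the 10 regulators, 3 passed the test: Zfp423 and Prdm16 rose and Cidea fell in mutant ureters, and 7 did not pass. That is 30% of the regulators, beside the 3.79% called over all genes, in a list of 10 chosen with earlier results of these data known. The changes were small, between 1.38-fold and 1.51-fold, and all 3 calls lay close to the threshold. A white and a brown regulator rose together, and the 2 brown regulators that went lowest, Ebf2 and Cidea, stood opposite to Prdm16. The levels of mutant and control RNA did not overlap for 6 of the 10 regulators, where 45.1% of all genes showed such separation, so separation alone marks little with 2 arrays.

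**Figure D1:**
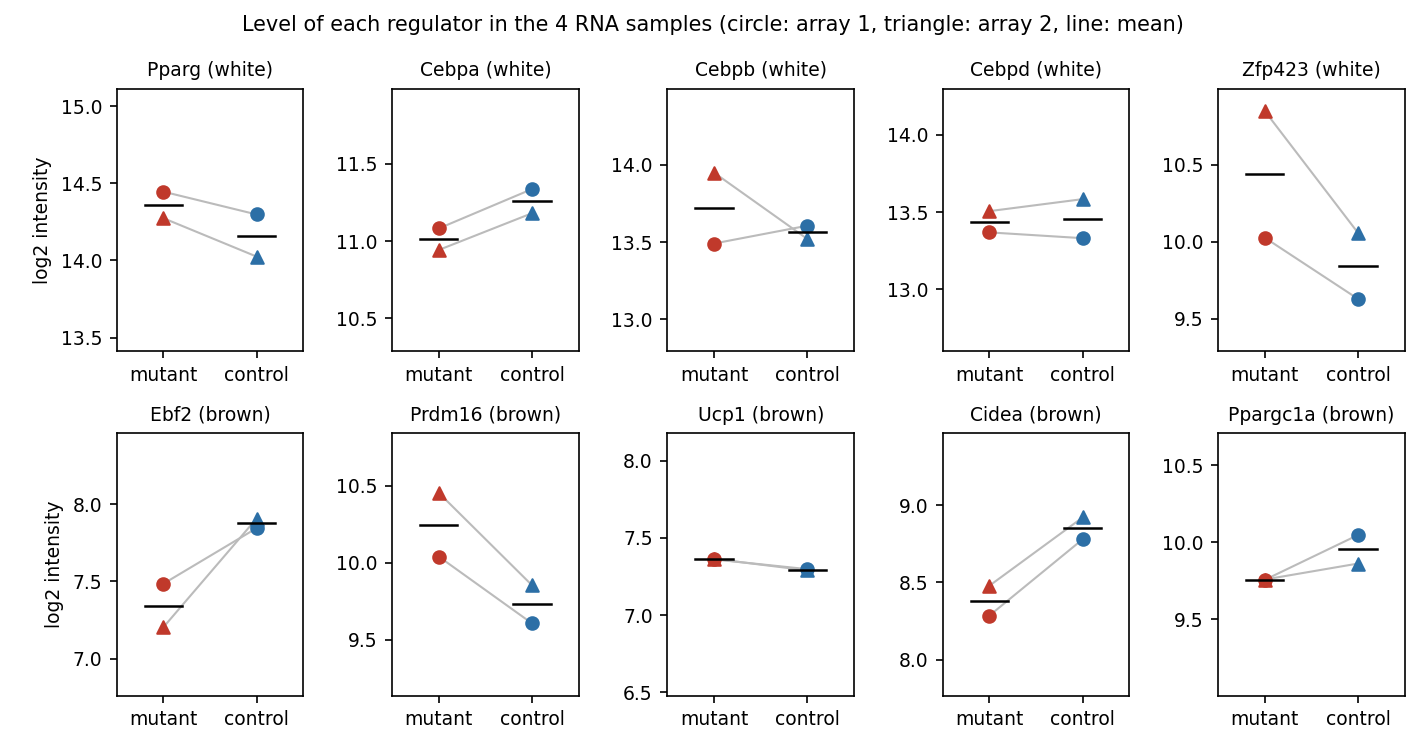
Level of each regulator, as normalised log2 intensity of its brightest probe, in 2 mutant (left, red) and 2 control (right, blue) RNA samples. Circles are array 1, triangles array 2, grey lines join RNAs of the same array and black bars are means; every panel spans the same height, and levels of different genes are not comparable. Prdm16, Cidea, Ebf2, Cebpa, Ppargc1a and Ucp1 have separate groups, while Pparg, Cebpb, Cebpd and Zfp423 overlap.

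Of the white fat set, 1 of 5 regulators rose, 0 fell and 4 did not pass. Zfp423 had a normalised log2 intensity of 10.03 and 10.85 in mutant RNA (arrays 1 and 2), against 9.63 and 10.06 in control RNA. The mutant RNA was higher on each array, but the mutant value of array 1 lay just below the control value of array 2. The ratios of mutant over control (log2) were 0.40 and 0.79, with a mean of 0.59 ± 0.28 (SD, n = 2) or 1.51-fold (limma adjusted p = 0.0428).

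The other probes of Zfp423 went the same way with smaller ratios. The neighbouring probe, 148 bases from the brightest one, had levels of 8.90 and 9.15 in mutant RNA, against 8.60 and 8.74 in control RNA, with ratios of 0.31 and 0.40 and a mean of 0.35 ± 0.069 (SD, n = 2). The distant probe, 24351 bases beyond the neighbouring one, had levels of 8.73 and 9.03 in mutant RNA, against 8.67 and 8.72 in control RNA, with ratios of 0.065 and 0.30 and a mean of 0.18 ± 0.17 (SD, n = 2). At both probes the mutant levels lay above the control levels without overlap. When every probe was fitted on its own, 5.09% of the 28915 probes tested were called; there the brightest Zfp423 probe passed (limma adjusted p = 0.0248) and the other 2 did not (0.0868 and 0.359). The rise of Zfp423 thus rests on 1 of its 3 probes, and with the mean over its probes the ratio was 0.38 (limma adjusted p = 0.0837).

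Pparg, the nuclear receptor at the centre of the fat cell programme, is measured by 1 probe, at chr6:115440213-115440272 on the plus strand (mm9); the isoforms it reads are not stated. Its level was 14.45 and 14.27 in mutant RNA, against 14.30 and 14.03 in control RNA, and the groups overlapped. The ratio was 0.15 on array 1 and 0.25 on array 2, with a mean of 0.20 ± 0.072 (SD, n = 2; limma adjusted p = 0.308). Mutant RNA was the higher one on both arrays, but the difference did not pass.

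Cebpa, which sustains the mature fat cell together with Pparg, is read at chr7:35906517-35906576 on the plus strand (mm9). It had a level of 11.08 and 10.94 in mutant RNA, against 11.34 and 11.18 in control RNA. Both mutant values lay below both control values, and the ratios were close, -0.26 and -0.24. Their mean was -0.25 ± 0.012 (SD, n = 2; limma adjusted p = 0.209), a 1.19-fold difference that did not pass.

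The early regulators Cebpb and Cebpd had ratios of opposite sign on the 2 arrays; their probes lie at chr2:167515828-167515887 and chr16:15888459-15888518 on the plus strand (mm9). Cebpb had 13.49 and 13.95 in mutant RNA, against 13.61 and 13.52 in control RNA, with ratios of -0.12 and 0.43 and a mean of 0.16 ± 0.39 (SD, n = 2; limma adjusted p = 0.546). Cebpd had 13.37 and 13.51 in mutant RNA, against 13.33 and 13.58 in control RNA, with ratios of 0.038 and -0.078 and a mean of -0.020 ± 0.082 (SD, n = 2; limma adjusted p = 0.933). For both genes the spread between arrays exceeded the mean ratio.

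Of the brown fat set, 1 of 5 regulators rose, 1 fell and 3 did not pass. Prdm16, a PR domain protein that specifies brown fat cells, had 10.04 and 10.45 in mutant RNA, against 9.61 and 9.85 in control RNA. Both mutant values were above both control values. The ratios were 0.43 and 0.60, a mean of 0.52 ± 0.12 (SD, n = 2) or 1.43-fold (limma adjusted p = 0.0428).

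Cidea, a lipid droplet protein abundant in brown fat, had 8.28 and 8.48 in mutant RNA, against 8.78 and 8.92 in control RNA, so that the groups were separate. Its ratios of -0.49 and -0.44 were nearly the same on both arrays, with a mean of -0.47 ± 0.037 (SD, n = 2) or a 1.38-fold difference (limma adjusted p = 0.0494). Cidea is on chromosome 18, at 67527351 to 67527410 on the plus strand (mm9).

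Ebf2, an early B cell factor that marks brown precursors, had 7.48 and 7.20 in mutant RNA, against 7.84 and 7.91 in control RNA. Its control values were close together and both mutant values lay below them. The mutant values were dim: the lowest signal still well above background lay at 6.74 and 6.48 in the mutant channels. Before normalisation, the signal above background was 93.6 and 61.5 in mutant RNA, against 231 and 217 in control RNA. Such raw signals were lower in mutant RNA for every probe of the regulators on both arrays, also where the normalised ratio rose. Prdm16 had 819 and 995 in mutant RNA, against 903 and 1167 in control RNA. The raw values thus do not measure the size of the fall. After normalisation, the ratios of Ebf2 were -0.36 and -0.70, with a mean of -0.53 ± 0.24 (SD, n = 2) or a 1.45-fold difference. The adjusted p of limma, 0.0502, missed the threshold narrowly. Its mean ratio was larger in size than that of Cidea, which passed, and its spread between arrays was wider.

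Ppargc1a, the coactivator of mitochondrial genes, was covered by 2 probes 1942 bases apart, at chr5:51848928-51848987 and chr5:51846926-51846985 on the minus strand (mm9). The brighter one had 9.76 and 9.76 in mutant RNA, against 10.05 and 9.86 in control RNA, with ratios of -0.29 and -0.10 and a mean of -0.20 ± 0.13 (SD, n = 2; limma adjusted p = 0.325). The dimmer one gave -0.29 and -0.086, a mean of -0.19 ± 0.15 (SD, n = 2). The probes thus gave nearly the same ratios on each array, and neither passed.

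Ucp1, which carries out heat production, is read at chr8:85821788-85821847 on the plus strand (mm9) and had 7.36 and 7.36 in mutant RNA, against 7.30 and 7.29 in control RNA. The lowest signal still well above background lay between 6.48 and 6.74 in the 4 channels on the same scale, so Ucp1 was measured but dim. Its ratios were 0.063 and 0.074, a mean of 0.069 ± 0.0080 (SD, n = 2; limma adjusted p = 0.741), and a 1.05-fold difference was not distinguished from none at this precision.

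**Figure D2:**
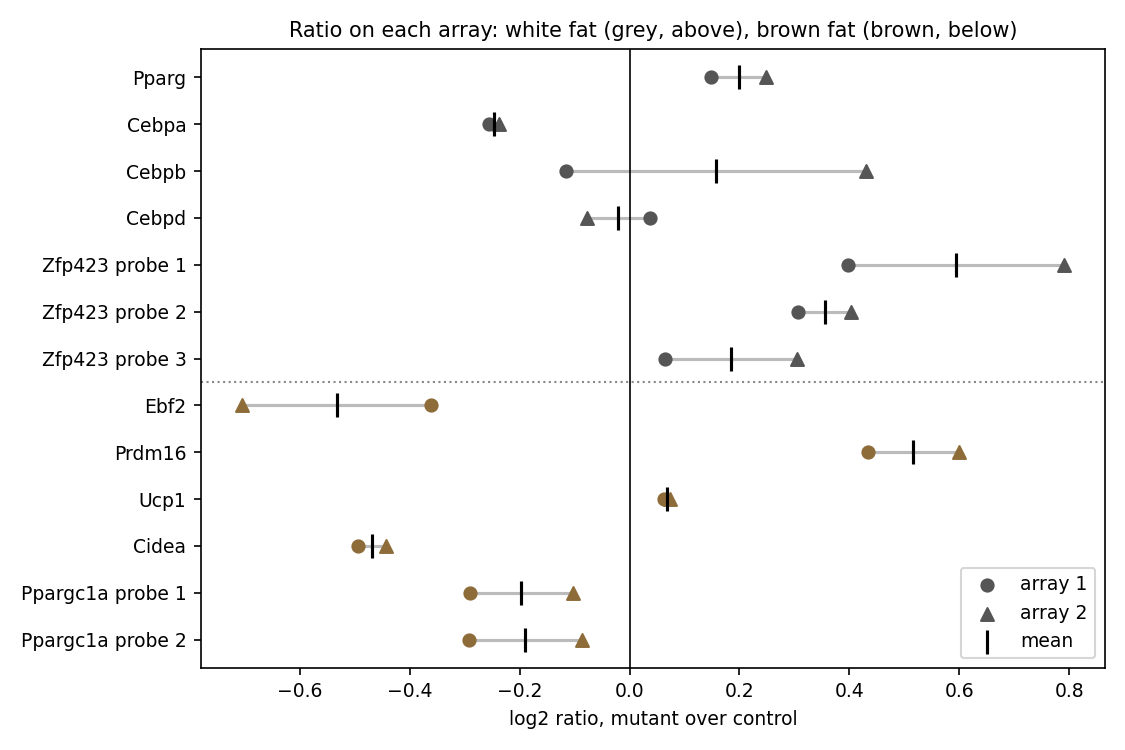
Log2 ratio of mutant over control for all 13 probes of the regulators, with circles for array 1, triangles for array 2 and black ticks for the mean; the dotted line parts white fat (above) from brown fat regulators (below). The 3 Zfp423 probes, Prdm16, Pparg and Ucp1 lie above 0 on both arrays. Ebf2, Cidea, Cebpa and both Ppargc1a probes lie below 0 on both, and Cebpb and Cebpd on both sides.

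Set side by side, the white fat regulators had a median log2 ratio of 0.16 and the brown fat regulators of -0.20, beside -0.019 over all genes tested. On array 1 the medians were 0.038 (white) and -0.29 (brown), and on array 2 they were 0.25 and -0.10. The brown set was lower on both arrays, but the ranges of the 2 sets overlapped, from -0.25 to 0.59 for white and from -0.53 to 0.52 for brown. The median size of the ratio, whatever its sign, was 0.47 in the brown set, 0.20 in the white set and 0.14 over all genes. The difference between the sets was not tested.

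Promoters of the 2 regulators that rose are shown because both were called, and whether the 2 genes share regulation was not tested. The downstream Pparg start is the one known for the fat-specific Pparg2 isoform. It is shown because Pparg was not called while genes of the mature fat cell fell, and was chosen after its value was seen. Each sequence runs from 250 bases before to 50 bases after a transcript start, from RefSeq (GRCm38.p6); the table used here matched 7 of the 10 regulators. Capitals mark matches on either strand to the C/EBP letters TTNCNNAA, the GC box GGGCGG and the box CCAAT. Also searched were the box TATAAA, the GLI letters GACCACCCA, the ETS letters CCGGAA, the EBF palindrome and the direct repeat bound by PPAR with RXR. These windows are chr4:154636824-154637123 on the minus strand for Prdm16, chr8:87959546-87959845 and chr8:87804390-87804689 on the minus strand for Zfp423, and chr6:115421816-115422115 on the plus strand for Pparg.
Prdm16: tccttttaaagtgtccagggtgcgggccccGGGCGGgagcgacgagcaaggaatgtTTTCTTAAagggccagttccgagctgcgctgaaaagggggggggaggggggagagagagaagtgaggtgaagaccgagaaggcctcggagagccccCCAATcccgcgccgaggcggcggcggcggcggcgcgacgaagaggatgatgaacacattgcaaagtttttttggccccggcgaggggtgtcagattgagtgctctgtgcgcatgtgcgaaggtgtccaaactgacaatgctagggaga
Zfp423 upstream start: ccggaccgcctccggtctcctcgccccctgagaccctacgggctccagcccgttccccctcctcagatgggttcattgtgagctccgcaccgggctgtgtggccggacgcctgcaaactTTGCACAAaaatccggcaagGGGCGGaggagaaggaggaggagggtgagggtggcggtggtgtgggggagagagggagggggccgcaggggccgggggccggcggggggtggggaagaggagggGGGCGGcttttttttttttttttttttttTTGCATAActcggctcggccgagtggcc
Zfp423 downstream start: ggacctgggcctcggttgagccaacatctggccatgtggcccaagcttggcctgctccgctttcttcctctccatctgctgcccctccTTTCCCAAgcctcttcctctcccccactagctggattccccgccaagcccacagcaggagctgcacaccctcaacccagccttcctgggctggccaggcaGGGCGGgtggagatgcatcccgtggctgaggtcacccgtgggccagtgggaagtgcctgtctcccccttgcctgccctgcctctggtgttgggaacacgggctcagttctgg
Pparg downstream start: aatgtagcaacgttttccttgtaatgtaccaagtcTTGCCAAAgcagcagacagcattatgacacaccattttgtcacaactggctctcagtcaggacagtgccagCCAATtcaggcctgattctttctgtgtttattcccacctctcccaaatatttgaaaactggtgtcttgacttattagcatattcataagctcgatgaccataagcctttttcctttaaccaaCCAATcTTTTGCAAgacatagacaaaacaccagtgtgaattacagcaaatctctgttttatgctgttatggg

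The C/EBP letters matched once in the Prdm16 window, 2 times at the upstream and once at the downstream Zfp423 start, and 2 times at the Pparg start, where 40.7% of all 32851 promoter windows hold a match. GC boxes matched once for Prdm16, 2 times and once for the Zfp423 starts and 0 times for the Pparg start, against 35.7% of all windows. The CCAAT letters occurred once for Prdm16 and 2 times for the Pparg start, against 37.4% of windows. None of these 4 windows held the EBF, PPAR with RXR, TATAAA, GLI or ETS letters, which 0.904%, 0.0396%, 13.6%, 0.253% and 14.9% of all windows hold. The Prdm16 and Zfp423 windows had G and C at 61.0% to 65.7% of bases and the Pparg window at 40.3%, beside a median of 52.7% over all windows. Pparg windows at starts further upstream are not shown and differed. They held 0 C/EBP matches, 1 and 2 GC boxes, 0 and 1 CCAAT matches, and 0 and 1 TATAAA matches.

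The regulators were set beside wider lists of the fat programme. Of 18 other adipogenic factors, 1 fell, 0 rose and 17 did not pass, with a median log2 ratio of 0.061. The gene that fell was Nr1h3, the liver X receptor that switches on lipid synthesis and is also strong in macrophages, by 0.95 ± 0.40 (SD, n = 2; limma adjusted p = 0.0196). The relatives of the regulators that follow were picked for lying near the threshold, after their values were seen. Ebf1, the paralogue of Ebf2, had -0.50 ± 0.19 (SD, n = 2; limma adjusted p = 0.0521), and the zinc finger gene Zfp467 had 0.47 ± 0.072 (SD, n = 2; limma adjusted p = 0.0508).

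Of 15 genes listed as inhibitors of fat cell formation, 1 rose, 1 fell and 13 did not pass, with a median of 0.22. Gata3, which represses Pparg in precursors and is also a urothelial transcription factor, rose by 1.00 ± 0.33 (SD, n = 2; limma adjusted p = 0.0152). Sfrp1 fell by 0.60 ± 0.0094 (SD, n = 2; limma adjusted p = 0.0248); it is a secreted binder of WNT ligands, and in mouse cells it is known to favour fat cell formation, against the name of the list. The zinc finger gene Zfp521, a relative of Zfp423 named after its value was seen, had 0.36 ± 0.075 (SD, n = 2; limma adjusted p = 0.0987).

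Of 28 other thermogenic genes, 26 were tested, 1 rose, 3 fell and 22 did not pass, with a median of -0.067. Cox8b and Cox7a1, subunits of cytochrome c oxidase made in brown fat and in heart and skeletal muscle, had -1.16 ± 0.25 and -0.73 ± 0.15 (SD, n = 2; limma adjusted p = 0.00986 and 0.0196). Plac8, a regulator of Cebpb in brown fat that immune cells express too, fell by 0.56 ± 0.055 (SD, n = 2; limma adjusted p = 0.0319). Bmp7, a signal that promotes brown fat and is also made by kidney and ureter epithelium, rose by 0.63 ± 0.36 (SD, n = 2; limma adjusted p = 0.0463). Elovl3 and Epsti1 were not well above background in either genotype on both arrays.

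Most of the mature fat cell genes tested fell. Of 22 on the list, 21 were tested and 12 fell, 0 rose and 9 did not pass, with a median of -0.73, of which -0.47 on array 1 and -1.08 on array 2. Beside them, no member of the white set was called lower, and the brown set held 1 such call. Among those that fell, Retn, a hormone of fat cells, had -1.65 ± 0.59 (SD, n = 2; limma adjusted p = 0.00999). Gpd1, which makes the glycerol backbone of triglycerides, had -1.89 ± 0.97, and the fatty acid desaturase Scd1 had -1.76 ± 0.89 (SD, n = 2; limma adjusted p = 0.0156 each). Pck1, which feeds glycerol synthesis, had -1.2 ± 0.53 (SD, n = 2; limma adjusted p = 0.0166). In each of these 4 genes the ratio was larger in size on array 2 than on array 1. Fat progenitor markers had a median of -0.22, with 1 of 10 tested genes called: Ly6a, the Sca-1 surface protein, fell by 0.89 ± 0.46 (SD, n = 2; limma adjusted p = 0.0247).

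**Figure D3:**
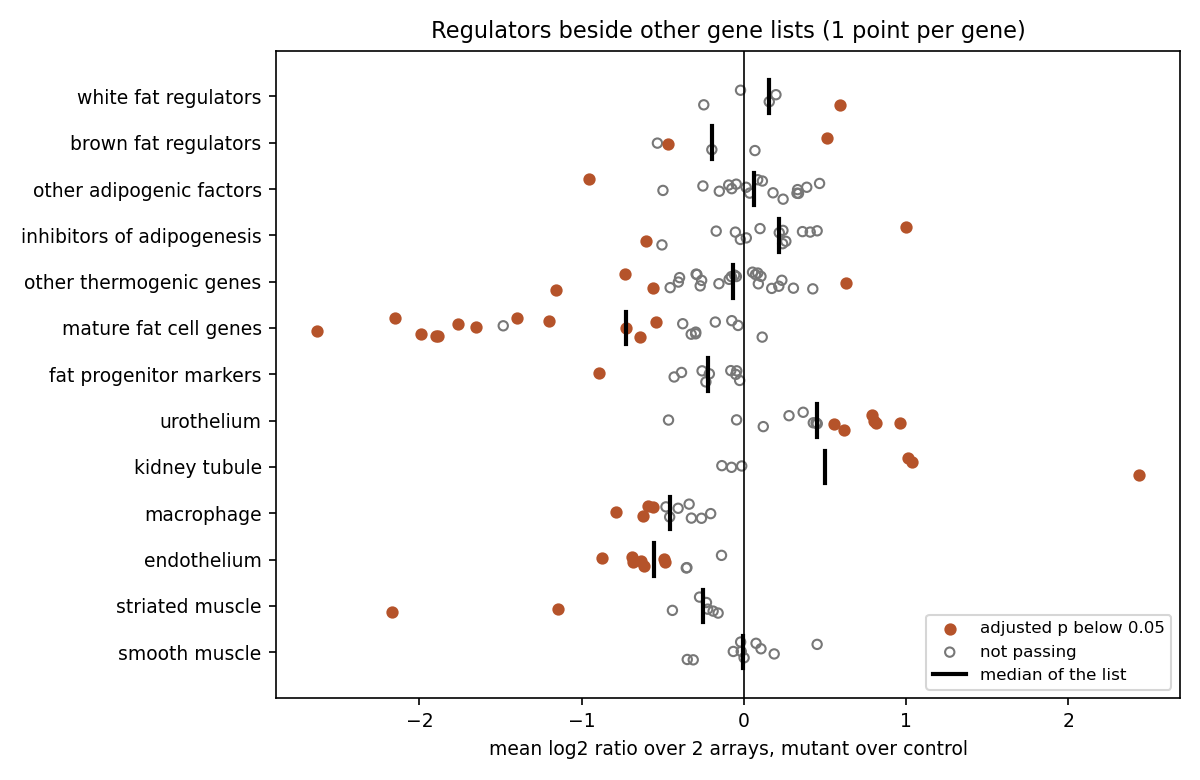
Mean log2 ratio of mutant over control over 2 arrays for each tested gene of 13 lists, with 1 point per gene, filled where limma's adjusted p was below 0.05, and a black bar at the list's median; vertical scatter within a list carries no value. The regulators lie between -0.53 and 0.59, while mature fat cell genes reach -2.63.

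Markers of other cell types moved in the same samples. The urothelial list, whose cells also express Pparg, had a median ratio of 0.45 with 6 of 14 genes higher and 0 lower; its summed linear intensity was 485572 and 579925 in mutant RNA, against 360490 and 367159 in control RNA. The macrophage list had a median of -0.46 with 4 of 11 lower and 0 higher, and summed to 174694 and 132058 in mutant RNA, against 231909 and 170749 in control RNA. Striated muscle genes, which share Cox8b, Cox7a1 and Ppargc1a expression with brown fat, had a median of -0.25 with 2 of 8 tested genes lower, Myh6 at -2.17 ± 0.34 and Ckm at -1.14 ± 0.22 (SD, n = 2), and sums of 33274 and 34313 in mutant RNA, against 46902 and 46353 in control RNA. Each sum is weighted to the brightest genes of its list, and in striated muscle neither Myh6 nor Ckm was the brightest. Of the striated muscle list, Actn2, Myh1, Mb and Myog were not well above background in either genotype on both arrays. The part of these cell types in the ratios of the regulators was not tested.

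The calls of the regulators depended on the processing. Prdm16 passed under 7, Ebf2 and Cidea under 6 and Zfp423 under 5 of 11 other ways of processing. Each of these 4 genes kept its sign under all 11. Among the 11, the use of older symbols for naming was chosen after seeing the data, and all 4 genes passed under it. Their adjusted p ran from 0.0207 to 0.164 for Zfp423, from 0.0274 to 0.164 for Prdm16, from 0.0325 to 0.121 for Cidea and from 0.0126 to 0.123 for Ebf2. With the processed signals of the scanner software the mean ratio of Ebf2 was -0.93 and with the authors' value table -0.86, against -0.53 as reported. The mutant signals of Ebf2 were dim in these data. The other 6 regulators passed under none of the 11, and Pparg and Cebpb turned to -0.052 and -0.092 under median centring.

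**Figure D4:**
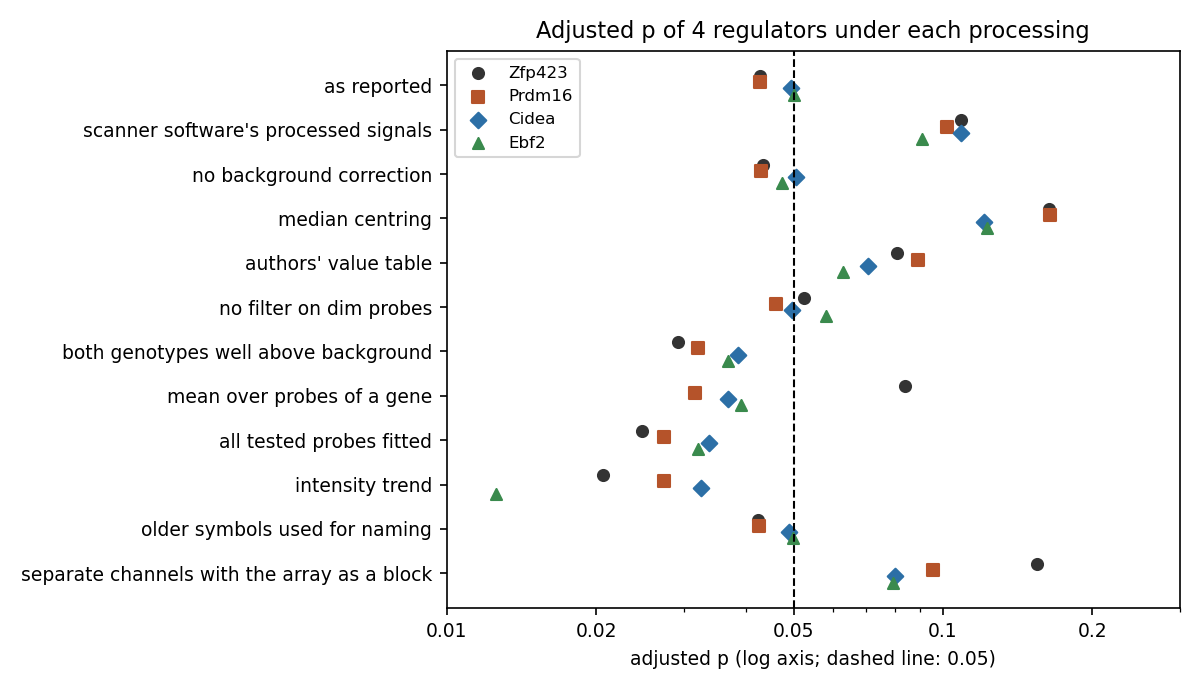
Adjusted p of limma (log axis) for Zfp423, Prdm16, Cidea and Ebf2 as reported (top row) and under 11 other ways of processing, with the threshold of 0.05 as a dashed line. As reported, the 4 genes lie between 0.0428 and 0.0502, and none passes with processed signals, median centring, the authors' value table or separate channels.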

How the data were processed

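The authors deposited scanner files with intensity values per spot and dye, for which the submitters' processing notes name Agilent Feature Extraction 10.7.3.1, and a value table with a score per probe, a signed fold whose scale and direction were worked out by comparison with the scanner values (r = 0.90 and 0.92 across probes with the mutant-over-control ratios, which gives its direction). No source used here says how that score was averaged or centred. Probe positions are in mm9 per the file headers.

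From the mean and background signals, ratios were computed with limma 3.58.1 (R 4.3.3): normexp with an offset of 50, which shrinks ratios of dim probes, loess within each array, outlier and control spots left out, spots of a probe averaged. Probes were named through RefSeq accession, then symbol. A probe entered where each array had it well above background in the same genotype, mutant or control or both (28915 probes, 22070 genes), each gene by its brightest probe. Ratios were turned to mutant over control and tested against 0 with lmFit and eBayes, two-sided, Benjamini-Hochberg over all genes, with 1 residual and 7.45 prior degrees of freedom. Levels of single RNAs are separate channels after Aquantile. The method was tested on simulated data. The regulators and lists were chosen with earlier results of these data known. Named genes are the regulators and, of each other list, called genes (at most 4 by smallest p); Ebf1, Zfp467 and Zfp521 were added after their values were seen.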

Additional observations from a re-analysis of the deposited data

Results flagged for a closer look

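The ratios of 2 regulators, Cebpb and Cebpd, had opposite signs on the 2 arrays, which carry different sex labels. Cebpb had a log2 ratio of -0.12 on array 1 (labelled male) and 0.43 on array 2 (labelled female). Cebpd had 0.038 on array 1 and -0.078 on array 2. The difference between the arrays was not tested, since each sex label has 1 array and is tied to a dye orientation, and 7401 of 22070 genes had opposite signs as well.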

How the results depend on the processing

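The number of genes called, 836, moved to 10 with the processed signals of the scanner software, 0 with median centring, 170 with the authors' value table, 1415 with an intensity trend in the variance, 214 with separate channels and the array as a block, and 1907 at an adjusted p below 0.1. At an unadjusted p below 0.05, median centring in limma held 5584 genes, against 4955 as reported. Of the 3 called regulators, 0 remained with processed signals, median centring, the authors' table or separate channels. Under median centring the ratio of all genes had a median of -0.14 in place of -0.019, the white fat median was -0.092 and the brown fat median -0.37. The ratios of Pparg and Cebpb turned to -0.052 and -0.092 there, yet stood at 0.089 and 0.049 relative to all genes; Cebpa was at -0.44, Cebpd at -0.26 and Ppargc1a at -0.37. Ucp1 was at 0.16 with processed signals and with the authors' table. Zfp423 lost its call without a filter on dim probes (adjusted p = 0.0526) and Cidea without background correction (0.0506), while Ebf2 passed when older symbols were used for naming (0.0498), a setting chosen after seeing the data. The cause was not tested. Leaving out 1 array leaves no residual degrees of freedom, so counts could not be recomputed; the single-array ratios stand in the report. All 13 probes were well above background in every channel. Yet on array 1 the spot SD reached 0.16 for Ucp1 and 0.17 for the dimmer Ppargc1a probe. The median spot SD over all probes was 0.073 on array 1 and 0.066 on array 2. Mutant and control RNA of a replicate share an array, so the reported ratios are already paired; the separate channels with the array as a replicate block are the fit that called 214 genes and 0 regulators.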

Other observations

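Endothelial genes had 7 of 10 lower and 0 higher in mutant RNA, with a median log2 ratio of -0.55; the junction gene Cdh5 fell by 0.69 ± 0.15 (SD, n = 2; limma adjusted p = 0.0228). Proliferation genes had 0 of 9 tested genes called and a median of -0.11; 1 lay above and 6 below 0 on both arrays. Smooth muscle markers had 0 of 10 called and a median of -0.0070. Ureteric mesenchyme markers had 1 of 8 called, Sox9, which rose by 0.73 ± 0.29 (SD, n = 2; limma adjusted p = 0.0247), and a median of 0.43. Kidney tubule genes had 3 of 6 tested genes higher and a median of 0.50, of which 0.80 on array 1 and 0.23 on array 2, and the transporter genes Slc12a1 and Slc12a3 and the endocytic receptor Lrp2 were not well above background in either genotype on both arrays.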
